A study of Mus musculus with 6 samples.

Results

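Genes of the 2-cell-like state were taken from the deposited expression table by symbol: Dux, Usp17la, Usp17le, Tcstv1, Tcstv3, Tdpoz3, Tdpoz4, Arg2, Tmem92 and Gm8300, which are 10 of 18518 gene symbols. All 10 had a row. RNA sequencing compared 3 BACH1-KO with 3 WT libraries of E14Tg2A, a widely used mouse embryonic stem cell line. The BACH1-KO cells carried CRISPR/Cas9-disrupted Bach1, made with a lentiviral guide plasmid, puromycin selection and, 7 days later, sorting of single-cell clones. WT cells were the same line without the disruption, and cells of both genotypes were kept 2 days in medium with serum and leukemia inhibitory factor (LIF, 200 units/ml). The labels do not say whether the BACH1-KO libraries came from 1 clone or whether libraries of a genotype came from separate cultures, so the spread behind each p-value is that between libraries and could be technical.

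The mouse embryo first transcribes its own genome in earnest at the 2-cell stage, and a rare, shifting fraction of cultured embryonic stem cells passes through a state with much of that program. DUX, a double homeobox transcription factor, is known to switch the program on, and many of its targets are multicopy genes such as those of the Zscan4, Usp17-like, Tcstv and Tdpoz families. Chromatin regulators and SUMO modification are known to hold it down in most cells. In bulk RNA a rise in the number of cells in a state and a rise of RNA per cell cannot be told apart.

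Of the members, 7 were higher in every BACH1-KO library than in any WT library: Dux, Usp17la, Usp17le, Gm8300, Tdpoz4, Arg2 and Tmem92. Among all symbols 38.9% were placed that way, and 52.6% of those with a mean of 0.1 to 1 FPKM over the 6 libraries (fragments per kilobase of transcript scaled to mapped fragments). Of the symbols with a mean of 1 to 10 FPKM 44.0% were. Tdpoz3 lay the other way, as did 29.3% of all symbols, 11.0% of those with a mean of 0.1 to 1 FPKM and 31.8% of those with 1 to 10 FPKM, and the libraries of Tcstv1 and Tcstv3 overlapped. Summed over the members, the level was 24.8 to 26.2 FPKM in BACH1-KO libraries and 7.27 to 7.63 FPKM in WT libraries.

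A RefSeq promoter window was on hand for 2 members, Usp17la and Tdpoz4, which both have higher levels in the BACH1-KO libraries. The 250 bases before the RefSeq start (GRCm38.p6) are shown for these, with those of the paralogs Usp17lb and Usp17lc, to show how alike the copies are before that start. In the annotation used for gene positions the Usp17lc window lies within the span of its gene (103415072 to 103419880). There the Tdpoz4 transcript has 1 exon of 1113 bases, and its longest reading frame has 370 codons, so it holds coding sequence only. Its start is then a start of coding sequence, and whether the Tdpoz4 window holds the promoter is not known. Capitals mark matches to TTCNNNGAA, the core bound by STAT factors. Usp17la lies at chr7:104856766-104857015 on the plus strand, Usp17lb at chr7:104842584-104842833 on the minus strand, Usp17lc at chr7:103416446-103416695 on the plus strand and Tdpoz4 at chr3:93796148-93796397 on the plus strand.
Usp17la: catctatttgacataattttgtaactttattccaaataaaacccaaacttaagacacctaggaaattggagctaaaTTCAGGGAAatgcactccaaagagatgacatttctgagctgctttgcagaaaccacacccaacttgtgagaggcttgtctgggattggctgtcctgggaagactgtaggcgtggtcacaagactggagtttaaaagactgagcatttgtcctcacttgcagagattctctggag
Usp17lb: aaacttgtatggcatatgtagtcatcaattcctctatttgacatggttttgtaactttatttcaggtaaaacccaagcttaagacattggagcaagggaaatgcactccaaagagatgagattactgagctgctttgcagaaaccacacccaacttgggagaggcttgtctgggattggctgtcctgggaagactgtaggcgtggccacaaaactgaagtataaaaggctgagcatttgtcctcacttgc
Usp17lc: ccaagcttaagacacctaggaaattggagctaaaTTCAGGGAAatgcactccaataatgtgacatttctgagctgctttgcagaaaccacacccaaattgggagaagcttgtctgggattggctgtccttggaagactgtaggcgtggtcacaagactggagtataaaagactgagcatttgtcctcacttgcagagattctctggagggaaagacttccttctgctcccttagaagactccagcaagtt
Tdpoz4: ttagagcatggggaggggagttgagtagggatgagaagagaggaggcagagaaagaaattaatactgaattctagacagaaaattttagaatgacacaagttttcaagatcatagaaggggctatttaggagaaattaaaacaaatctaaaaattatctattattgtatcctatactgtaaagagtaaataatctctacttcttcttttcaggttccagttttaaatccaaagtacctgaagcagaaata

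In a global alignment, 204 of 250 bases (81.6%) of the Usp17la window matched Usp17lb and 198 (79.2%) matched Usp17lc. The STAT core, which reads the same on both strands, was found in Usp17la but not in Usp17lb or Tdpoz4. It occurs in 7.02% of 32851 RefSeq promoter windows of this length. TGACTCA, the core shared by BACH1, NRF2 and AP-1 sites, was found on either strand in 0 of the 2 member windows and occurs in 4.46% of all windows. A looser form first chosen for it was narrowed after the matches were seen. The palindromic motif of DUX, searched by its consensus on both strands, was in 0 of the 2 member windows and in 0.0304% of all windows. A match is a run of letters and not a bound site, and a missing one says only that those letters are not in this window.

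Bach1 was measured first. Its level was 10.5, 10.4 and 10.4 FPKM in BACH1-KO libraries and 7.97, 8.39 and 8.47 FPKM in WT libraries, and by limma the log2 fold change was 0.30 (SE 0.05, adjusted p = 5.15e-04). An edited coding sequence need not lower its transcript, so these values do not check the genotype labels. The libraries as a whole differed widely between the genotypes. With a filter at a mean of 1 FPKM over the 6 libraries, 77.0% of 12187 tested genes passed an adjusted p of 0.05 by limma, 37.3% higher and 39.7% lower in BACH1-KO. With no filter, 62.9% of 18518 passed, 35.5% higher and 27.4% lower. Genes that mark embryonic stem cells were abundant in all libraries, and Dppa5a, Pou5f1 and Tdgf1, the most abundant of the 8 listed by the mean over the 6 libraries, averaged 4284, 1115 and 242 FPKM in BACH1-KO and 6606, 1377 and 1130 FPKM in WT. Of the 8, 7 fell and 1, Nanog, was called higher, at 313 ± 3.68 FPKM in BACH1-KO and 298 ± 3.96 FPKM in WT. The log2 fold change of Nanog was 0.07, and it lies on chromosome 6, whose 541 tested genes had a median of 0.31. The deposited values are shares of a library, with no read counts among them. From the smallest steps between low values, 1 fragment on a transcript of 2 kb was estimated at 0.0315 to 0.0365 FPKM in BACH1-KO libraries and 0.0325 to 0.0345 FPKM in WT libraries.

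Log2 fold changes are given as BACH1-KO minus WT of log2(FPKM + 1), a scale on which changes of low genes come out too small, with the standard error (SE) and Benjamini-Hochberg adjusted p of limma over all genes tested. For members under the filter they come from the fit with no filter. For each of the 8 members whose libraries did not overlap, p was 0.1 in an exact two-sided permutation test, which cannot go lower with 3 libraries in each group.

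Dux encodes the factor that drives the program. Its level was 0.128, 0.191 and 0.223 FPKM in BACH1-KO libraries and 0.0373, 0 and 0.105 FPKM in WT libraries. It was higher in all BACH1-KO libraries, at levels where a few fragments make the value. The means were 0.181 ± 0.0485 FPKM in BACH1-KO and 0.0475 ± 0.0534 FPKM in WT (SD, n = 3 each), a log2 fold change of 0.17 (SE 0.05, limma adjusted p = 0.0201). The call was lost after quantile normalization (log2 fold change 0.03, limma adjusted p = 0.684), against a fold change of 1.5 (limma adjusted p = 1.0) and without any of 4 libraries (limma adjusted p = 0.0626 to 0.071): either of the last 2 BACH1-KO columns or either of the first 2 WT columns. Dux had no entry under that symbol in the annotation, so its position is not given.

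**Figure D1:**
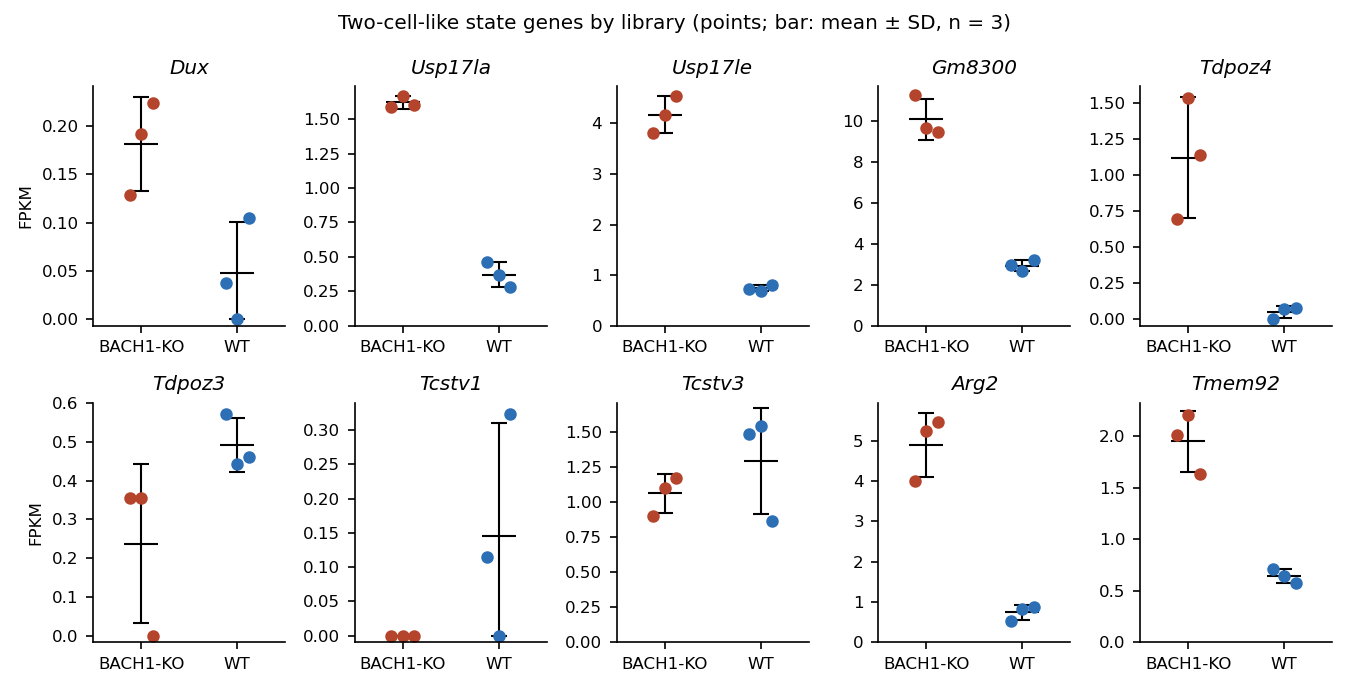
Level of each member in FPKM (vertical axes, each with its own scale) in the 3 BACH1-KO and 3 WT libraries, with points for libraries and bars for the mean ± SD. Gm8300 sits at 9.49 to 11.3 FPKM in BACH1-KO and 2.67 to 3.2 FPKM in WT, while Dux stays under 0.25 FPKM throughout and Tcstv1 is listed at 0 in all BACH1-KO libraries.

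The Usp17-like genes encode deubiquitinating enzymes, proteases that remove ubiquitin from proteins. Usp17le (chromosome 7, mm10, 104768049 to 104777470, minus strand, 3 or 4 exons) was at 3.8, 4.17 and 4.54 FPKM in BACH1-KO libraries and at 0.731, 0.698 and 0.803 FPKM in WT libraries. The ratio of the means was 5.6, and Usp17le rose with a log2 fold change of 1.57 (SE 0.08, limma adjusted p = 7.92e-07). Usp17la (chromosome 7, 104857009 to 104862667, plus strand, 3 exons) was at 1.59, 1.67 and 1.6 FPKM in BACH1-KO libraries and at 0.464, 0.371 and 0.282 FPKM in WT libraries. Its mean over the 6 libraries, 0.996 FPKM, is just under the filter, and without the filter it rose by a log2 fold change of 0.93 (SE 0.06, limma adjusted p = 3.09e-05). The groups of both genes were far apart for their spread.

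The neighbouring copy Usp17lb, 14.4 kb from Usp17la, averaged 3.33 ± 0.174 FPKM in BACH1-KO and 0.680 ± 0.370 FPKM in WT. All 5 Usp17-like rows of the table were higher in each BACH1-KO library, where 38.9% of all symbols were. Their ratios were 1.42 to 7.01. The lowest ratio was that of Usp17lc, which lies farther off on the chromosome and stood at 0.935 ± 0.135 FPKM in BACH1-KO and 0.657 ± 0.0777 FPKM in WT. Its direction turned after quantile normalization of all genes. The log2 ratio of Usp17le to Usp17lc within a library (0.1 FPKM added to each) was 2.13, 2.02 and 2 in BACH1-KO and 0.16, 0.22 and 0.11 in WT. The difference of 1.89 had an exact permutation p of 0.1, the lowest possible here, also after adjustment over the 3 within-family pairs compared. Those pairs were chosen with the values known, so this p lends the difference no weight. Near-identical copies can share fragments: 30.8% of the 50-base windows of the Usp17le transcript and 19.6% of those of Usp17la occur in transcripts of other genes, and 8.73% and 3.83% of their 100-base windows do. The longest reading frames of Usp17la and Usp17le are 88.8% identical.

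Gm8300 belongs to a cluster of copies related to the translation initiation factor eIF1A. It was the most abundant member, with 11.3, 9.67 and 9.49 FPKM in BACH1-KO libraries and 2.99, 2.67 and 3.2 FPKM in WT libraries. It rose 3.44 times by the means, with a log2 fold change of 1.49 (SE 0.08, limma adjusted p = 1.2e-06), and was the only member to pass a filter at a mean of 5 FPKM. Gm8300 lies on chromosome 12 (87514316 to 87518266, plus strand, 2 exons). Its longest reading frame has 144 codons and is 97.2% identical to those of Gm2016 and Gm5662 and 93.8% to that of Eif1ax, the X-linked eIF1A gene of all cells.

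The other eIF1A-like rows compared stood higher in BACH1-KO as well. Gm2016 averaged 15.4 ± 0.543 FPKM in BACH1-KO and 4.06 ± 0.747 FPKM in WT, Gm5662 14.1 ± 1.05 FPKM in BACH1-KO and 3.69 ± 0.574 FPKM in WT, and Gm2022 8.53 ± 0.706 FPKM in BACH1-KO and 1.89 ± 0.721 FPKM in WT. The 6 eIF1A-like rows compared here, Gm8300, Gm2016, Gm5662, Gm2022, BB287469 and Gm4027, were a choice and not the whole family. All 6 were higher in every BACH1-KO library, where 38.9% of all symbols were. Their ratios ran from 3.44 to 7.27, and their sum was 52.6 ± 2.63 FPKM in BACH1-KO and 13.3 ± 2.10 FPKM in WT. Eif1ax itself had 286 ± 8.67 FPKM in BACH1-KO and 272 ± 6.03 FPKM in WT and did not pass (limma adjusted p = 0.0678). The longest reading frame of a related gene, Eif1a, is 95.1% identical to that of Gm8300. Eif1a fell, with 98.0 ± 1.13 FPKM in BACH1-KO and 112 ± 3.92 FPKM in WT (limma adjusted p = 0.00123). Of the 50-base windows of Gm8300 26.6% recur in other genes, against 81.3% for Gm2016, 77.9% for Gm5662, 96.6% for BB287469 and 97.2% for Gm2022. How the sum divides between those rows thus depends on how the authors' tool assigned shared fragments.

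The Tdpoz genes encode proteins with TRAF-like and POZ domains related to SPOP, an adaptor of cullin ubiquitin ligases. Tdpoz4 (chromosome 3, 93796398 to 93797510, plus strand, 1 exon) was at 0.695, 1.53 and 1.14 FPKM in BACH1-KO libraries and at 0, 0.0723 and 0.0756 FPKM in WT libraries. Both WT values above 0 are near what 1 fragment gives, an estimated 1.2 fragments each, against 11.9 to 27.1 estimated fragments in BACH1-KO libraries. Tdpoz4 rose with a log2 fold change of 1.00 (SE 0.14, limma adjusted p = 8.31e-04), which becomes 3.02 with 0.1 FPKM added in place of 1. It was not called against a fold change of 1.5 (limma adjusted p = 0.0846).

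Tdpoz3 (chromosome 3, 93826020 to 93827117, plus strand, 1 exon) had its lower values in BACH1-KO. Its level was 0.355, 0.355 and 0 FPKM in BACH1-KO libraries and 0.573, 0.442 and 0.462 FPKM in WT libraries. Tdpoz3 did not pass, with a log2 fold change of -0.28 (SE 0.12, limma adjusted p = 0.0844), except after quantile normalization (-0.53, limma adjusted p = 0.00291). The log2 ratio of Tdpoz4 to Tdpoz3 within a library, with 0.1 FPKM added, was 0.81, 1.84 and 3.63 in BACH1-KO and -2.75, -1.65 and -1.68 in WT. Tdpoz4 was thus above Tdpoz3 in each BACH1-KO library and below it in each WT library, a difference of 4.12. Its exact permutation p was 0.1, and 0.1 after adjustment over the 3 pairs, which were chosen with the values known. The longest reading frames of these genes are 59.7% identical. Of the 50-base windows of Tdpoz3 66.2% recur in other genes, as do 41.2% of those of Tdpoz4, and of the 100-base windows 46.7% and 11.6%.

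The Tcstv genes are short multicopy genes of the 2-cell embryo on chromosome 13, whose products are known in mouse embryonic stem cells for lengthening telomeres. Tcstv3 (120316878 to 120318178, plus strand) was at 0.898, 1.1 and 1.17 FPKM in BACH1-KO libraries and at 1.48, 1.54 and 0.86 FPKM in WT libraries, so the groups overlapped. Tcstv3 did not pass, with a log2 fold change of -0.15 (SE 0.13, limma adjusted p = 0.339), which became -0.29 (limma adjusted p = 0.0337) without the last WT column and -0.45 (limma adjusted p = 0.0131) after quantile normalization. Tcstv1 (119893388 to 119894785, minus strand) was listed at 0 in all BACH1-KO libraries and at 0.115, 0 and 0.324 FPKM in WT libraries. The highest of these values corresponds to an estimated 4.1 to 6 fragments, by the transcript length used. Tcstv1 did not pass (log2 fold change -0.19, SE 0.10, limma adjusted p = 0.131), though it did without the middle WT column (-0.28, limma adjusted p = 0.0273). Neither of these Tcstv members was higher in BACH1-KO, unlike the Usp17-like and eIF1A-like rows compared, and that difference was not tested. Rows near them were mixed. AF067063, 63.2 kb from Tcstv1, was at 0.312 ± 0.0285 FPKM in BACH1-KO and 0.107 ± 0.0058 FPKM in WT. It was called higher with no filter (limma adjusted p = 5.32e-04), a call lost after quantile normalization. BC147527, 8.1 kb from Tcstv3, was higher in every BACH1-KO library, where 38.9% of all symbols were. AF067061 and Gm20767 did not pass.

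Arg2 and Tmem92 share the least transcript sequence with other genes among the members found in the annotation. Arg2 encodes the mitochondrial arginase, which splits arginine into ornithine and urea, and lies on chromosome 12 (79130777 to 79156301, plus strand, 8 exons). Its level was 4, 5.24 and 5.47 FPKM in BACH1-KO libraries and 0.522, 0.837 and 0.873 FPKM in WT libraries. Arg2 rose 6.59 times by the means, with a log2 fold change of 1.76 (SE 0.13, limma adjusted p = 4.65e-06). Tmem92, a transmembrane protein gene on chromosome 11 (94777217 to 94782703, minus strand, 5 exons), was at 2.01, 2.21 and 1.63 FPKM in BACH1-KO libraries and at 0.715, 0.647 and 0.577 FPKM in WT libraries. It rose with a log2 fold change of 0.84 (SE 0.10, limma adjusted p = 8.51e-05) and was not called against a fold change of 1.5 (limma adjusted p = 0.0812). No 50-base window of the Arg2 transcript and 2.01% of those of Tmem92 recur in other genes, so few or none of their fragments could be shared with copies.

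In the fit with the filter, 5 members were tested: Usp17le, Gm8300, Arg2, Tmem92 and Tcstv3. Of these 4 were called higher, where 37.3% of all tested genes were, and 0 lower by limma (0 also at an unadjusted p under 0.05). Usp17le, Arg2 and Tmem92 had WT means under 1 FPKM and passed the filter through their BACH1-KO level, so that count had to lean upwards. With no filter all 10 were tested, and 7 were called higher, beside 35.5% of all symbols, with 0 lower (0 also at an unadjusted p under 0.05) and 3 not past. With 0.1 FPKM added in place of 1, a setting chosen after seeing the data, 7 were again called higher, beside 36.3% of all symbols (63.8% in either direction). The median log2 fold change of the 10 was 0.89, and that of all symbols 0.04.

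In order of level, the BACH1-KO means ran from Gm8300 at 10.1 FPKM through Arg2 (4.9), Usp17le (4.17), Tmem92 (1.95), Usp17la (1.62), Tdpoz4 (1.12) and Tcstv3 (1.06) to Tdpoz3 (0.237), Dux (0.181) and Tcstv1 at 0. Arg2 and Usp17le, Tmem92 and Usp17la, Tdpoz4 and Tcstv3, and Tdpoz3 and Dux overlapped between libraries. In WT the means ran from Gm8300 at 2.95 FPKM through Tcstv3 (1.29), Usp17le and Arg2 (0.744 each), Tmem92 (0.646), Tdpoz3 (0.492), Usp17la (0.372) and Tcstv1 (0.146) to Tdpoz4 (0.0493) and Dux (0.0475). There Usp17le overlapped Arg2 and Tmem92, and Arg2 also overlapped Tmem92, Tcstv3 and Tdpoz3. Tdpoz3 overlapped Usp17la as well, and so did all neighbours in the order from Usp17la down. FPKM is per length of transcript, but the authors' lengths and their division of fragments among copies are not known here, so the order of multicopy members is uncertain.

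Low genes as a class were higher in BACH1-KO, and most members are low. Of the 3442 genes with a mean of 0.1 to 1 FPKM, the class of Dux, Usp17la, Tdpoz3 and Tdpoz4, 51.0% were called higher and 9.62% lower by limma with no filter, and their median ratio of BACH1-KO to WT was 2.07. The library medians of this class were 0.424 to 0.429 FPKM in BACH1-KO and 0.197 to 0.202 FPKM in WT. Of the 5636 genes with a mean of 1 to 10 FPKM, the class of the other members but Tcstv1, 40.9% were called higher and 28.9% lower, with a median ratio of 1.10. The ratios of Usp17la (4.35), Tdpoz4 (22.8) and Dux (3.8) stood above the median of the first class, and that of Tdpoz3 (0.481) below it. In the second class the ratios of Arg2 (6.59), Usp17le (5.6), Gm8300 (3.44) and Tmem92 (3.02) stood above the median and that of Tcstv3 (0.816) below it. Olfactory and vomeronasal receptor genes, which embryonic stem cells are not known to use, had a value above 0 in 57.6%, 58.7% and 48.9% of 92 symbols in BACH1-KO libraries and in 28.3%, 30.4% and 30.4% in WT libraries. Of these 92, 17 were called higher, 3 lower and 72 not past. With no filter, 35.5% of all symbols were called higher and 27.4% lower. Of those with a mean under 0.1 FPKM, the class of Tcstv1, 15.6% were called higher and 1.04% lower.

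**Figure D2:**
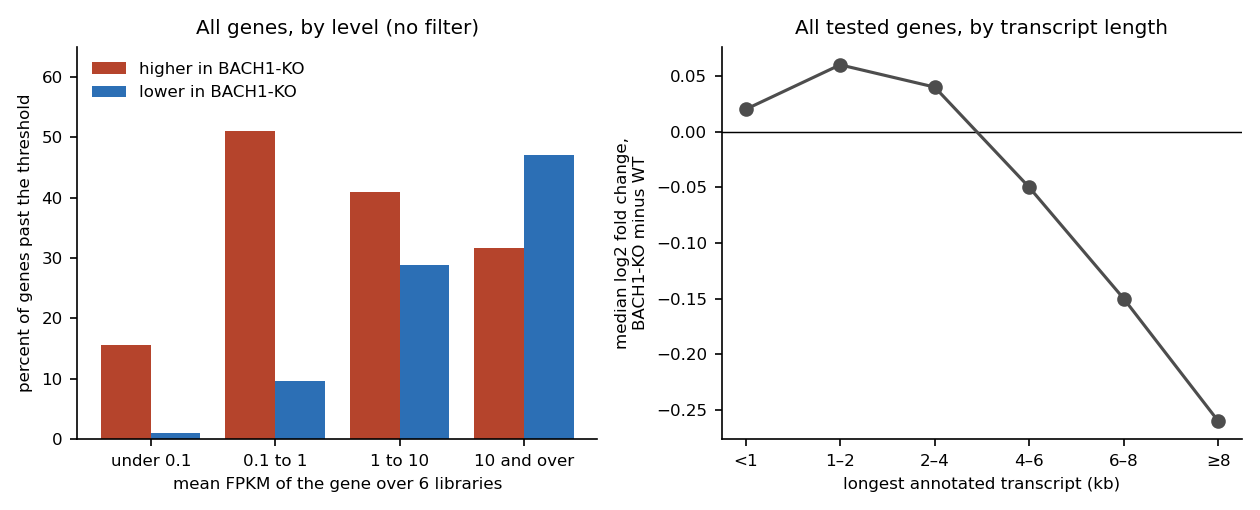
Left, percent of all genes called higher or lower in BACH1-KO by limma with no filter, by mean FPKM over the 6 libraries. Right, median log2 fold change of tested genes by length of the longest annotated transcript. Higher calls reach 51.0% between 0.1 and 1 FPKM, and the median falls to -0.26 for transcripts of at least 8 kb.

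Transcripts of other cell types also differed between the genotypes. All 20 hepatocyte markers rose: their sum was 1002 to 1036 FPKM in BACH1-KO libraries and 11.3 to 17.9 FPKM in WT libraries, where 2 of them were listed at 0 throughout. The most abundant, the plasma protein genes Alb, Trf and Apoa1, averaged 468, 76.4 and 83.8 FPKM in BACH1-KO and 0.721, 10.1 and 0.947 FPKM in WT. Every BACH1-KO library carried them, so no comparison without them could be made, and their part in the members' values was not tested. Oocyte markers, whose cells share transcripts with the early embryo, summed to 11.0 to 12.4 FPKM in BACH1-KO and 14.7 to 17.0 FPKM in WT, with 1 of 8 higher, 1 lower and 6 not past by limma with no filter. Zp3, which codes for a zona pellucida protein, made up most of that sum and was the 1 called lower. It had 10.0 ± 1.05 FPKM in BACH1-KO and 14.7 ± 1.01 FPKM in WT. H1foo was the 1 called higher, at 0.239 ± 0.0967 FPKM in BACH1-KO and 0.0267 ± 0.0463 FPKM in WT (limma with no filter, adjusted p = 0.009). Bmp15 and Nlrp5 were at or near 0 in all libraries. Spermatid markers summed to 1.04 to 1.36 FPKM in BACH1-KO and 0 to 0.497 FPKM in WT, with 2 of 5 higher and 3 not past. Trophoblast markers summed to 53.6 to 56.5 FPKM in BACH1-KO and 58.0 to 63.1 FPKM in WT, with 3 of 9 higher, 3 lower and 3 not past. Fibroblast feeder markers summed to 13.2 to 13.7 FPKM in BACH1-KO and 25.4 to 26.1 FPKM in WT. Of these, 3 of 10 were called higher, 5 lower and 2 did not pass. Thy1 made up most of the sum, at 10.2 ± 0.19 FPKM in BACH1-KO and 18.8 ± 0.55 FPKM in WT. The 3 called higher were Col1a2, Col3a1 and Dcn, with Dcn at 0.764 ± 0.0944 FPKM in BACH1-KO and 0.0664 ± 0.0806 FPKM in WT. Called lower were Col1a1, Thy1, Pdgfrb, Pdgfra and S100a4.

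Other transcripts of the 2-cell-like state, a list of 45 symbols of which 33 were in the table, mostly stood higher in BACH1-KO. Of the 17 that passed the filter, 12 rose, 0 fell by limma (0 also at an unadjusted p under 0.05) and 5 did not pass, where 37.3% of all tested genes were called higher and 39.7% lower. The median log2 fold change was 0.94, and that of all tested genes -0.01. Cml2, BB287469, Usp17lb and Zfp750 had WT means under 1 FPKM and passed the filter through their BACH1-KO level, so this count and median had to lean upwards as well. With no filter 22 of 33 rose, 0 fell (0 also at an unadjusted p under 0.05) and 11 did not pass, where 35.5% of all symbols, and 51.0% of those with a mean of 0.1 to 1 FPKM, were called higher. The median was then 0.42, and that of all symbols 0.04. After quantile normalization 7 of the 22 calls were lost, and in the fit with the filter 11 of the 17 were then called higher and 1 lower. Summed over the 33 symbols in the table, the level was 91.4 to 92.6 FPKM in BACH1-KO libraries and 32.2 to 41.9 FPKM in WT libraries. The largest fold change was that of Cml2, an N-acetyltransferase-like gene, at 3.36 ± 0.284 FPKM in BACH1-KO and 0.0884 ± 0.0246 FPKM in WT (log2 fold change 2.00, limma adjusted p = 2.86e-07). Cml2 had no entry under that symbol in the annotation, so its chromosome is not given. The part of the hepatocyte transcripts in the values of Cml2 and the other listed transcripts was not tested. BB287469, a further eIF1A-like row, had 3.16 ± 0.288 FPKM in BACH1-KO and 0.503 ± 0.207 FPKM in WT. Ddit4l, an inhibitor of mTORC1 signalling, rose to 6.38 ± 0.114 FPKM in BACH1-KO, against 2.76 ± 0.115 FPKM in WT. Zfp750, a zinc finger factor known in epidermal differentiation, rose to 2.5 ± 0.11 FPKM in BACH1-KO, against 0.797 ± 0.274 FPKM in WT.

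**Figure D3:**
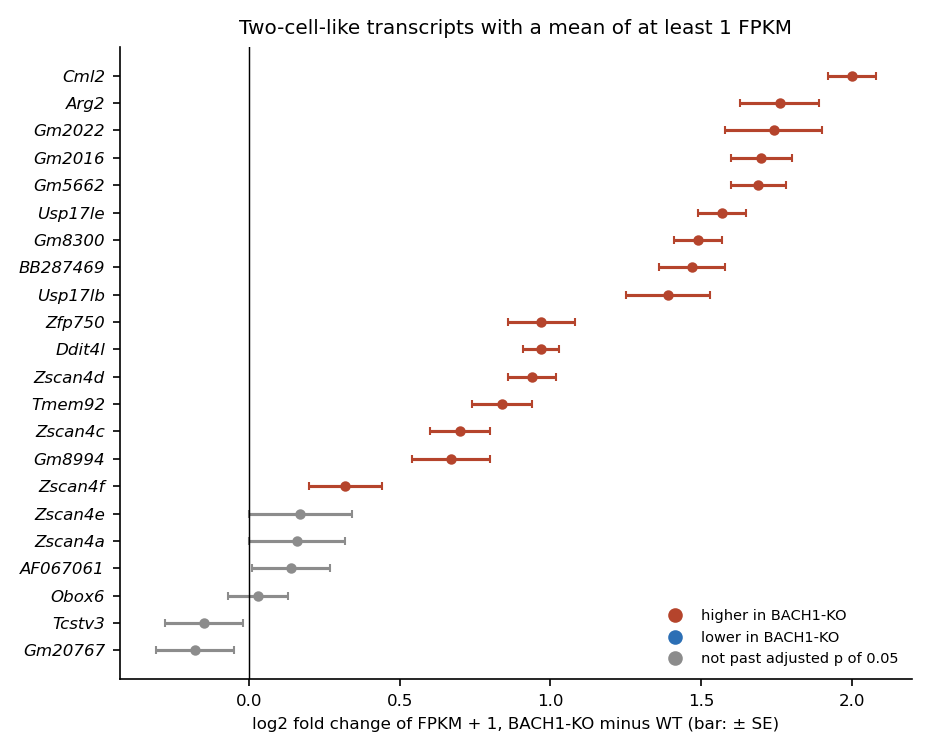
Log2 fold change, BACH1-KO minus WT, of the members and other 2-cell-like transcripts with a mean of at least 1 FPKM (points, with bars of ± SE, on the log2(FPKM + 1) scale). Cml2 is at 2.00 and Arg2 at 1.76, while Tcstv3 and Gm20767, which did not pass, are the only 2 below 0.

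Zscan4, a family of zinc finger genes that marks the state and is known for telomere maintenance, has 6 rows. Of these, 3 passed in the fit with the filter, where 37.3% of all tested genes were called higher. Zscan4d was at 6.21 ± 0.315 FPKM in BACH1-KO and 2.78 ± 0.330 FPKM in WT (log2 fold change 0.94, SE 0.08, limma adjusted p = 1.45e-05). Zscan4c was at 3.72 ± 0.0433 FPKM in BACH1-KO and 1.93 ± 0.346 FPKM in WT (log2 fold change 0.70, SE 0.10, limma adjusted p = 2.23e-04). Zscan4f passed narrowly, with 1.59 ± 0.279 FPKM in BACH1-KO and 1.09 ± 0.293 FPKM in WT (limma adjusted p = 0.0457), overlapped between the groups and lost the call with no filter (0.0627) and under both other scalings. Zscan4a, which is annotated as a pseudogene, did not pass, at 3.70 ± 0.400 FPKM in BACH1-KO and 3.29 ± 1.05 FPKM in WT. Nor did Zscan4e, at 1.46 ± 0.282 FPKM in BACH1-KO and 1.23 ± 0.560 FPKM in WT. Zscan4b was under the filter, at 0.492 ± 0.0388 FPKM in BACH1-KO and 0.497 ± 0.227 FPKM in WT, and did not pass without it. The log2 ratio of Zscan4d to Zscan4a within a library (0.1 FPKM added) differed by 0.94 between the genotypes. Its exact permutation p was 0.1, for a pair also chosen with the values known. Of the 50-base windows of Zscan4c 85.5% recur in other genes, so single copies are uncertain, and the family sum was 17.2 ± 0.598 FPKM in BACH1-KO and 10.8 ± 2.10 FPKM in WT. That ratio of sums, 1.59, compares with 4.24 for the Usp17-like and 3.96 for the eIF1A-like rows, and the difference between the ratios was not tested. Zfp352, a retrogene of the 2-cell embryo, was at 0.522 ± 0.117 FPKM in BACH1-KO and 0.136 ± 0.0541 FPKM in WT (limma with no filter, adjusted p = 0.00158). That call was lost after quantile normalization.

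Known activators of the state moved both ways. Of 6 in the table, 3 rose and 3 fell, where 37.3% of all tested genes were called higher and 39.7% lower, with a median log2 fold change of 0.17. Dppa2, a chromatin protein that activates Dux in mouse embryonic stem cells, rose to 104 ± 5.51 FPKM in BACH1-KO, against 60.0 ± 3.83 FPKM in WT (log2 fold change 0.79, SE 0.06, limma adjusted p = 4.52e-06). Its partner gene Dppa4 fell to 126 ± 4.76 FPKM in BACH1-KO, against 149 ± 5.78 FPKM in WT (log2 fold change -0.25, limma adjusted p = 6.89e-04), a call lost after quantile normalization. Dppa3, a maternal factor that protects DNA methylation in the zygote, rose to 66.9 ± 3.33 FPKM in BACH1-KO, against 13.0 ± 0.898 FPKM in WT (log2 fold change 2.28). Dppa3 lies on chromosome 6, whose 541 tested genes had a median log2 fold change of 0.31. Rarg, a retinoic acid receptor, rose to 52.0 ± 1.68 FPKM in BACH1-KO, against 36.4 ± 1.4 FPKM in WT. Nelfa, a subunit of the negative elongation factor, fell to 27.8 ± 0.859 FPKM in BACH1-KO, against 34.9 ± 1.52 FPKM in WT. Trp53, which encodes p53, fell to 207 ± 5.94 FPKM in BACH1-KO, against 231 ± 12.5 FPKM in WT, and turned direction after quantile normalization.

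Of 41 known repressors of the state 26 fell, 8 rose and 7 did not pass, beside 39.7% of all tested genes called lower and 37.3% higher. Their median log2 fold change was -0.19, and that of all tested genes -0.01. Atrx, a chromatin remodeller that works with histone H3.3, was at 7.23 ± 0.0704 FPKM in BACH1-KO and 24.6 ± 0.441 FPKM in WT (log2 fold change -1.64, limma adjusted p = 3.08e-08). Tet1 and Tet2, which oxidize 5-methylcytosine, were at 6.02 ± 0.114 and 4.56 ± 0.138 FPKM in BACH1-KO and at 21.7 ± 0.407 and 13.0 ± 0.483 FPKM in WT. Rif1, a replication timing factor, was at 26.2 ± 0.510 FPKM in BACH1-KO and 52.3 ± 0.411 FPKM in WT. Ep400, a subunit of the TIP60 complex, was at 5.22 ± 0.153 FPKM in BACH1-KO and 11.3 ± 0.0573 FPKM in WT. Uba2, part of the SUMO-activating enzyme, was at 175 ± 2.77 FPKM in BACH1-KO and 270 ± 7.50 FPKM in WT.

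Rybp and Rnf2, subunits of Polycomb repressive complex 1, rose and were at 36.6 ± 1.15 and 76.9 ± 0.654 FPKM in BACH1-KO and at 27.0 ± 0.0976 and 68.1 ± 0.352 FPKM in WT. E2f6, a factor of the same complexes, rose too and was at 21.6 ± 1.99 FPKM in BACH1-KO and 16.2 ± 0.622 FPKM in WT, and Cbx3, which encodes HP1 gamma, at 99.5 ± 5.52 FPKM in BACH1-KO and 78.6 ± 5.12 FPKM in WT. Smarcad1, a chromatin remodeller, was at 35.4 ± 0.555 FPKM in BACH1-KO and 28.6 ± 1.09 FPKM in WT, and Hdac1, a histone deacetylase, at 105 ± 3.60 FPKM in BACH1-KO and 93.2 ± 2.56 FPKM in WT. Rybp, Cbx3 and Smarcad1 lie on chromosome 6. Among the repressors that fell, Trim28, Hdac2, Sae1 and Hells turned direction after quantile normalization of all genes.

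Transcript length moved with these values. Of the 10 repressors with a longest transcript of at least 6 kb, 9 fell and 1 did not pass, with a median log2 fold change of -0.97. Of the 31 shorter ones, 17 fell, 8 rose and 6 did not pass, with a median of -0.11. Over all tested genes the median was -0.15 for transcripts of 6 to 8 kb, -0.26 for those of at least 8 kb and 0.06 for those of 1 to 2 kb. The part of transcript length in the repressors' values was not tested.

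**Figure D4:**
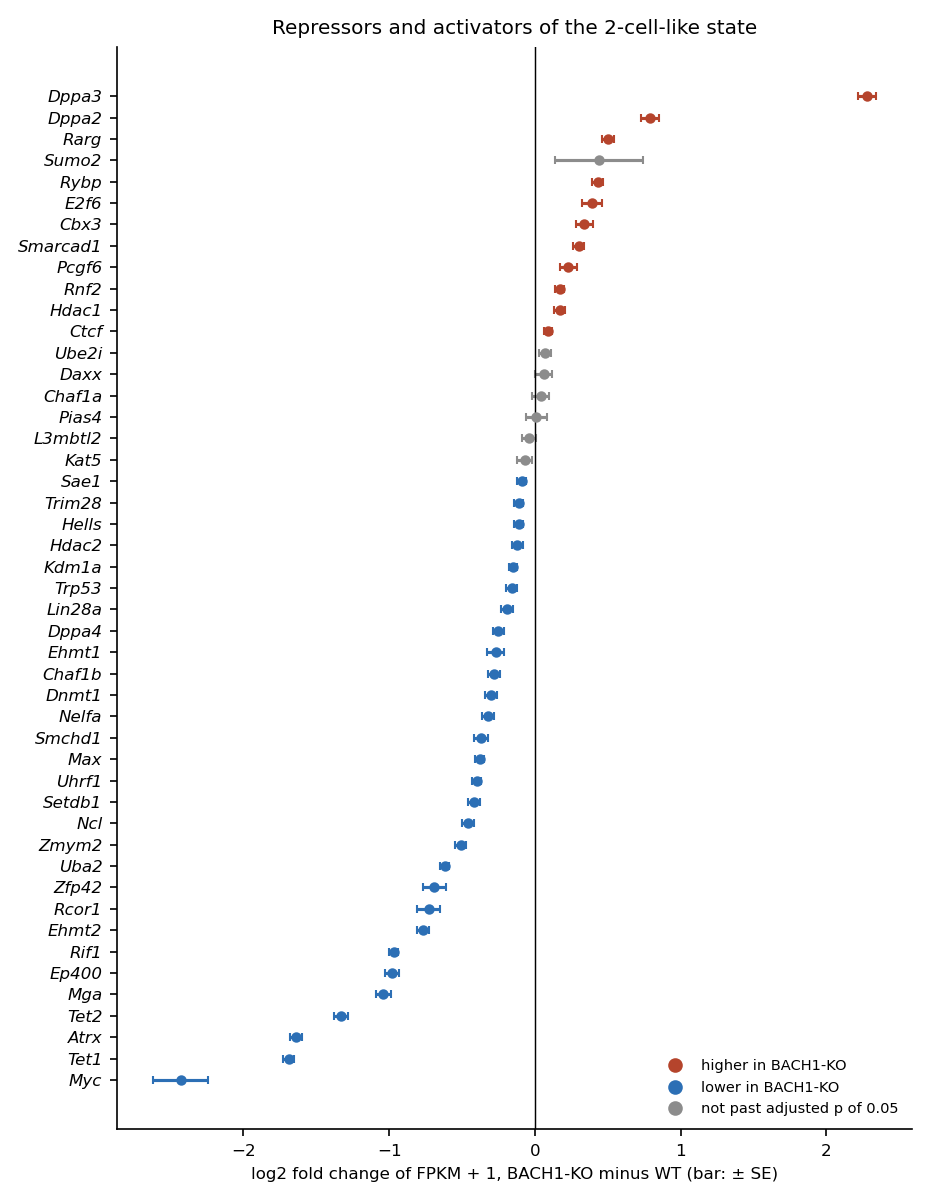
Log2 fold change, BACH1-KO minus WT, of 41 repressors and 6 activators of the 2-cell-like state (points, with bars of ± SE, on the log2(FPKM + 1) scale, coloured by call). Dppa3 at 2.28 and Dppa2 at 0.79 head the order, and Tet1 at -1.69 and Atrx at -1.64 are near its foot, where Myc has the lowest value at -2.43.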

How the data were processed

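Total RNA of 3 BACH1-KO and 3 WT libraries was sequenced after a TruSeq library preparation, per the labels' protocols. The authors deposited FPKM per gene symbol, and Cufflinks and mm10 stand in the submitters' processing notes. Not given in the sources used here are the aligner, gene annotation, strand setting and tool versions. The table's columns name the genotype but no sample title, so each was used as an unnumbered replicate. Of its rows, 18518 carried a symbol, and 23 with a number in place of one (at most 0.106% of a library's summed FPKM) were left out.

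Genes averaging 1 FPKM or more over the 6 libraries were compared on log2(FPKM + 1) between 3 BACH1-KO and 3 WT libraries with a two-sided limma test (version 3.58.1, R 4.3.3; lmFit, eBayes with a mean-variance trend). Adjustment was by Benjamini-Hochberg over all genes tested, with a threshold of 0.05. The test was checked on simulated data. Members and lists were chosen with earlier results of these data known. Named were all members and Bach1, listed 2-cell-like transcripts past the threshold (up to 8 each way, plus the Zscan4 rows and Zfp352), repressors and activators past it (up to 6 each way), and the most abundant markers. Other genes were chosen after their values were seen.

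Positions, lengths and shared windows came from GENCODE transcripts of GRCm38 (the build also called mm10), for 9 of 10 members. Promoter windows came from RefSeq (GRCm38.p6), for 2 of 10. Estimated fragments assume that whole fragments were counted over those lengths. Absolute depth is otherwise unknown. Library correlations were 0.991 to 0.994 within and 0.929 to 0.935 between genotypes across genes, which are not independent replicates. Alternatives covered the pseudocount, filter, scaling, prior variance, a fold-change threshold and each library left out.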

Additional observations from a re-analysis of the deposited data

How the results depend on the processing

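No paired analysis was possible because the columns of the table carry no number that the labels tie to samples. Of all genes, 9378 were called with the main settings, 2319 against a fold change of 1.5 (1325 higher, 994 lower), and 8798 to 9344 with each library left out. Of the members 4 were called, 7 with no filter, 7 with no filter and a pseudocount of 0.1 (chosen after seeing the data), 1 with a filter at 5 FPKM, which leaves 1 member, and 4 to 5 with each library left out. Of the other 2-cell-like transcripts 12 were called, 22 with no filter, 21 with no filter and a pseudocount of 0.1, 3 with a filter at 5 FPKM, which leaves 3, and 11 to 13 with each library left out. Of the repressors and activators 40 were called, 10 against a fold change of 1.5, and 37 to 40 with each library left out. No member changed direction under any alternative run. Usp17la, Usp17le, Arg2 and Gm8300 kept their calls under all of theirs, with log2 fold changes of 0.63 to 1.88, 1.34 to 2.34, 1.54 to 2.58 and 1.4 to 1.75. Bach1 and Dux were not called against a fold change of 1.5. The causes of these changes were not tested. Values of a few estimated fragments limit Dux, Tcstv1, Tdpoz3 and Tdpoz4.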

Other observations

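Genes beside the members, chosen after their values were seen, had values in both directions. Gm11545, 19.5 kb from Tmem92, was at 1.48 ± 0.134 FPKM in BACH1-KO and 0.256 ± 0.151 FPKM in WT (SD, n = 3 each), while of the 9 neighbours of Tmem92 within 400 kb that passed the filter 0 rose by limma, 5 fell and 4 did not pass. Mycbpap, 255.5 kb from Tmem92, was at 0.939 ± 0.0790 FPKM in BACH1-KO and 0.0386 ± 0.0138 FPKM in WT. The 2 tested neighbours of Tdpoz4, the calcium-binding protein genes S100a10 and S100a11, were at 118 ± 7.45 and 114 ± 4.25 FPKM in BACH1-KO and at 448 ± 10.5 and 236 ± 9.07 FPKM in WT, and both fell. Within 400 kb of Gm8300, 6 of 13 tested neighbours rose, 4 fell and 3 did not pass. Those that rose include its own eIF1A-like copies BB287469, Gm2016 and Gm2022. Within 400 kb of Arg2, 3 of 12 rose, 5 fell and 4 did not pass. Of all tested genes, 37.3% were called higher and 39.7% lower. Klf17, a factor of the early embryo, was at 1.34 ± 0.0234 FPKM in BACH1-KO and 0.477 ± 0.0267 FPKM in WT (limma with no filter, adjusted p = 3.73e-05).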
